A study of Mus musculus with 40 samples.

Results

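The 10 germ cell translation regulators described here are Dazl, Boll, Pabpc1, Pabpc2, Paip2, Eif4g3, Ybx2, Ybx3, Cpeb1 and Cpeb2, taken by gene symbol from the 55492 genes of a count table of single mouse testis cells. The rule goes by name alone and uses no measured value, but the genes and lists were chosen with earlier results of these data known. The table holds 40 cells, 20 labelled Metaphase I and 20 labelled Pachytene, each made into 1 RNA sequencing library. All came from testes of C57BL/6J mice aged 6 to 8 weeks, and per the labels' protocols spermatocytes were enriched by centrifugal elutriation, a separation by cell size. Progression to metaphase I was induced with 4 µM okadaic acid for 5 h, an inhibitor of the protein phosphatases PP1 and PP2A. That protocol text stands on the libraries of both groups, and a drug-free culture of the Pachytene cells is not described in the labels. Stage, drug and time in culture cannot be told apart. No transgene, mutation or genotype difference is named for either group.

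Spermatocytes and spermatids make many transcripts well before the protein is used, so mRNA storage, tail length and cap-dependent initiation set much of their protein output. Poly(A)-binding proteins hold the tail and contact the eIF4G scaffold at the cap, and the DAZ family and CPEB proteins bind 3′ untranslated regions and act on that contact or on tail length. Y-box proteins coat and store germ cell mRNAs. The comparison asks how the transcripts of these factors differ between pachytene cells and cells driven towards alignment on the first meiotic spindle. The autosomes of pachytene cells are fully paired.

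The libraries held 198117 to 1497037 counts per cell in Metaphase I (median 540662) and 165048 to 2325564 in Pachytene (median 730979). Levels are counts per 1000000 of the library total (CPM). The labels name no animal or culture, so each group is 1 sample of 20 cells, differences are described and not tested, and every interval is a 95% interval for counting error only. All 10 spermatocyte markers listed were detected, summing to 10429 to 25854 CPM in Metaphase I and 16391 to 28081 CPM in Pachytene. The stage labels were not separated by 8 genes of M phase, which summed to 860 to 3457 CPM in Metaphase I cells (median 1900) and 836 to 3615 CPM in Pachytene cells (median 1408). Among these Aurka, the kinase of spindle assembly, ran from 126 to 904 CPM in Metaphase I and from 87.1 to 862 CPM in Pachytene. In 8 libraries X-linked genes held over 0.3% of counts, a level that the other 32 did not reach. These were Metaphase I replicates 3, 7, 17 and 19 and Pachytene replicates 2, 3, 7 and 19. Metaphase I replicate 19 also had 17367 CPM of 12 Sertoli cell markers, of which Amh, Rhox5, Gata4 and Fshr were at 0. The other 7 held 1141 to 6073 CPM of 12 elongating spermatid markers. Each group ratio is therefore also given without the 8 libraries, and the part of other cell types in it was not tested.

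Between the labels, Dazl had the largest ratio of these transcripts, and the other 8 measured lay within a log2 ratio of -0.33 to 0.22. Of the 10 genes, 9 reached 20 summed counts, and of these none had over 2-fold more or over 2-fold less CPM in Metaphase I. Over all 16174 genes with that many counts, 8.49% were over 2-fold higher and 9.81% over 2-fold lower, shares at which few of 9 genes would be called. The median log2 ratio of summed counts, Metaphase I over Pachytene with 1 CPM added to each, was -0.06 for the 9 and -0.00 for all genes. Without the 8 libraries 1 of the 9, Dazl, was over 2-fold higher and none lower. There 6.32% and 4.13% of 13451 genes were higher and lower. Metaphase I replicate 13, with 583 of the 1260 Metaphase I Dazl counts left, was kept in that setting. The ranges over cells overlapped between the groups for every one of the 9. The share of all genes that did so was not determined, so this overlap is not read as a trait of the 9.

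**Figure D1:**
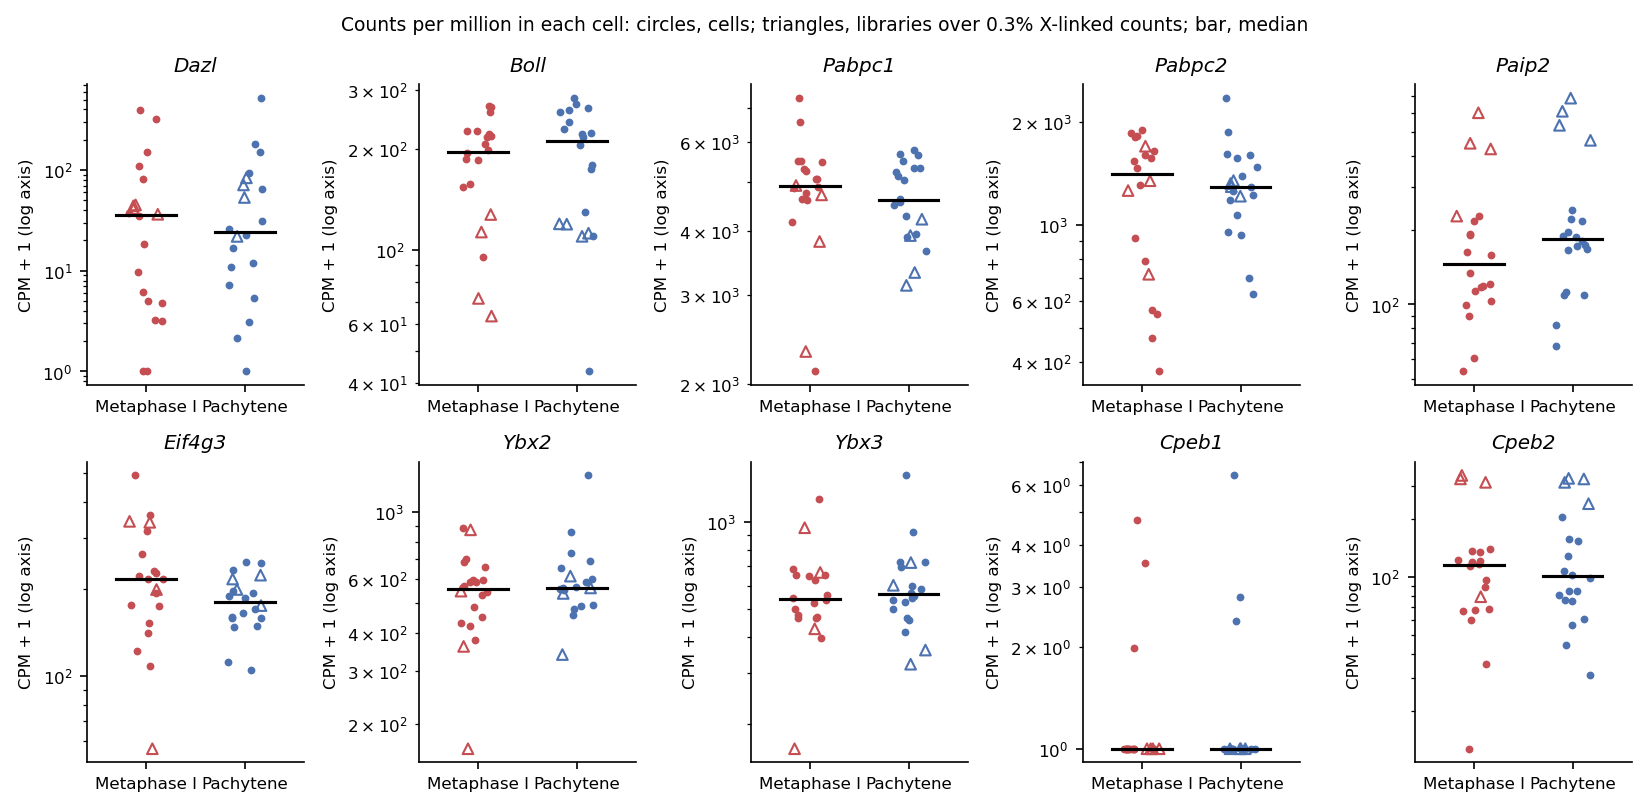
Level of each gene in every cell, as CPM + 1 on a log axis, with Metaphase I left of Pachytene. Circles and triangles are single cells, triangles marking the 8 libraries with over 0.3% X-linked counts, and bars are medians; Dazl spans the widest range of the 9 measured genes, Pabpc1 the narrowest, and the upper cells of Cpeb2 and Paip2 are triangles.

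The DAZ family members come first. Dazl is an RNA-binding protein that germ cells need to enter meiosis and that promotes translation of the mRNAs it binds. Its gene lies on the minus strand at chr17:50279395-50293636 (GRCm38, as for all positions here). Dazl had a lowest value of 0, a median of 34.5 and a highest value of 389 CPM in Metaphase I, and 0, 23.2 and 515 CPM in Pachytene. The groups overlapped over most of their range, and each held a few cells far above its median. These were Metaphase I replicates 13, 14, 1 and 15, with 389, 319, 148 and 108 CPM, and Pachytene replicates 5, 14 and 16, with 515, 179 and 150 CPM. At the low end, Metaphase I replicates 6 and 12 and Pachytene replicate 11 had no Dazl count. A count of 0 allows up to 10.6, 7.59 and 3.86 CPM in these libraries, at 3 counts of their totals.

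Summed over cells, Dazl had 1360 counts in Metaphase I (exact Poisson interval 1289 to 1434) and 878 in Pachytene (821 to 938). That is 99.2 CPM in Metaphase I and 49.7 CPM in Pachytene, 2.00-fold (exact binomial interval 1.83 to 2.17), a log2 ratio of 0.98. Much of this came from 1 deep library. Metaphase I replicate 13 held 42.9% of the Dazl counts of its group, and without it the ratio of Dazl was 1.28-fold (1.16 to 1.41), a log2 ratio of 0.35. With equal weight for each cell, mean Dazl CPM was 66.0 ± 107 in Metaphase I and 67.8 ± 117 in Pachytene (SD over 20 cells each), a log2 ratio of -0.04. Without the 8 libraries the summed ratio of Dazl was 1.31 on the log2 scale. The median over cells was then 13.1 CPM in Metaphase I and 18.6 CPM in Pachytene. The omissions of the 8 libraries and of replicate 13 were made separately. The cells thus gave no single direction for Dazl.

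The coefficient of variation of CPM over the 40 cells was largest for Dazl among the 9 genes, at 1.65. It was higher than in 89.6% of the 500 genes nearest to Dazl in mean CPM, whose median was 0.578. Against genes of like mean Paip2 stood higher, with a coefficient of 0.740 that was above 93.8% of its 500. That coefficient includes the 8 libraries, where the median of Paip2 was 497 CPM against 160 CPM in the other 32. It was not determined without them. Because the result turns on Dazl, its RefSeq promoter is shown, from 250 bases before to 50 after the start site (GRCm38.p6, chr17:50293571-50293870, minus strand). Capitals mark the cAMP response element half-site, TGACG read on either strand.

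Dazl: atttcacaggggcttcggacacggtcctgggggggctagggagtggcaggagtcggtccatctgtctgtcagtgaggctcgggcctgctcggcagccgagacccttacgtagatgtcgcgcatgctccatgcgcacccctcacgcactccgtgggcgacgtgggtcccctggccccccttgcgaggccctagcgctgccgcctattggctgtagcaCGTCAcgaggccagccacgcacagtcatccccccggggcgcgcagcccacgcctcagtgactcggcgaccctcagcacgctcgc

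The window had 1 such match, a motif that 20.8% of 32851 RefSeq promoter windows also hold, and 28 CpG dinucleotides where the median window has 7. The match is a description of letters and no evidence that a factor binds there. None of the MYB core AACNG, the GC box GGGCGG or the TATA box TATAAA was found in it on either strand. These letters were in 80.3%, 35.7% and 13.6% of all windows.

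Boll, the ancestral member of the DAZ family, is needed for spermatid development in mice. It lies on the minus strand at chr1:55248658-55363469. Boll had 62.5, 195 and 268 CPM (lowest, median, highest) in Metaphase I and 42.4, 210 and 282 CPM in Pachytene. These ranges were nearly the same, and the summed log2 ratio of Boll was -0.06 with all cells and -0.09 without the 8 libraries. Those 8 libraries had 62.5 to 126 CPM of Boll (median 112). The other 32 had 42.4 to 282 CPM (median 217), a range that includes the values of the 8. The lowest cell of all, Pachytene replicate 5, was the cell with the most Dazl. Boll had 0.0824 counts for each Dazl count in that cell, and 194 counts for each in Pachytene replicate 8. The lower value of this ratio rests on 7 Boll counts and the higher on 2 Dazl counts. Over cells with a Dazl count the median of this ratio was 4.60 in Metaphase I and 5.67 in Pachytene, and Boll and Dazl had a Spearman rho of -0.20 over the 40 cells and 0.01 without the 8 libraries.

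Of the poly(A)-binding proteins, Pabpc1 is the general cytoplasmic form, which binds the tail and the eIF4G scaffold. The gene is at chr15:36595661-36609668, minus strand. Pabpc1 had 2115, 4898 and 7312 CPM (lowest, median, highest) in Metaphase I and 3127, 4605 and 5774 CPM in Pachytene. Its log2 ratio was 0.04 and 0.03 without the 8 libraries, and it turned to -0.01 with TMM scaling. It was also the steadiest of the 9 over cells, with a coefficient of variation of 0.212 where 10.6% of the genes near it in mean had a lower one. Low Pabpc1 cells were Metaphase I replicates 18 and 19, at 2115 and 2316 CPM.

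Pabpc2 is a testis form of the same protein in mice, encoded by an intronless gene at chr18:39773497-39776082, plus strand. Pabpc2 had 373, 1408 and 1891 CPM in Metaphase I and 630, 1293 and 2348 CPM in Pachytene. Metaphase I reached lower and Pachytene higher, with quartiles of 769 and 1657 CPM in Metaphase I and of 1156 and 1497 CPM in Pachytene. The summed log2 ratio of Pabpc2 was -0.18, and -0.20 without the 8 libraries, while the ratio of medians was 0.12. Metaphase I replicate 13, the cell with the most Dazl in its group, had the least Pabpc2 of all 40 cells. Left out, it moved the summed log2 ratio of Pabpc2 to -0.07.

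Within a cell, the ratio of Pabpc1 to Pabpc2 counts had a median of 3.58 in Metaphase I (2.58 to 12.7) and 3.18 in Pachytene (2.45 to 8.96). It was highest in Metaphase I replicate 13 and, within Pachytene, in replicate 14. The longest transcripts of Pabpc1, Pabpc2 and the related Pabpc6 share 0% of their 50-base windows, although reads with mismatches or from pseudogene copies were not examined.

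Paip2 binds poly(A)-binding protein, displaces it from the tail and represses translation. Its gene is at chr18:35598617-35617187, plus strand. Paip2 had 52.5, 145 and 598 CPM in Metaphase I and 66.6, 183 and 685 CPM in Pachytene. The highest cells of both groups were libraries with over 0.3% X-linked counts. In the 8 such libraries Paip2 ran from 227 to 685 CPM (median 497), and in the other 32 from 52.5 to 240 CPM (median 160). The summed log2 ratio of Paip2 was -0.27 with all cells and -0.11 without the 8. Leaving out Pachytene replicate 7, which held 25.6% of the Paip2 counts of its group, gave -0.05, and leaving out Metaphase I replicate 3 gave -0.50.

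Set against its target in the same cell, Pabpc1 had a median of 34.5 counts per Paip2 count in Metaphase I and 25.9 in Pachytene. The median was 6.68 in the 8 libraries and 33.9 in the other 32, whose lowest value was 17.8. Only Metaphase I replicate 17 of the 8, at 21.7, reached into the range of the others.

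Eif4g3 encodes a form of the eIF4G scaffold that joins the cap-binding protein, the poly(A)-binding protein and the ribosome. Mouse spermatocytes need it to leave meiotic prophase. The gene spans chr4:137993022-138208508 on the plus strand. Eif4g3 had 55.4, 215 and 491 CPM in Metaphase I and 104, 180 and 247 CPM in Pachytene. Metaphase I was spread more widely on both sides and contained the Pachytene range. The summed log2 ratio of Eif4g3 was 0.22, 1.17-fold (1.11 to 1.23), and 0.29 without the 8 libraries. It kept that sign with TMM or median-of-ratios scaling, with equal weight per cell and with any 1 cell left out, between 0.16 and 0.28. The SD over cells was 102 CPM around a mean of 226 in Metaphase I and 39.5 CPM around a mean of 181 in Pachytene, so the difference in means was smaller than the spread in Metaphase I.

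**Figure D2:**
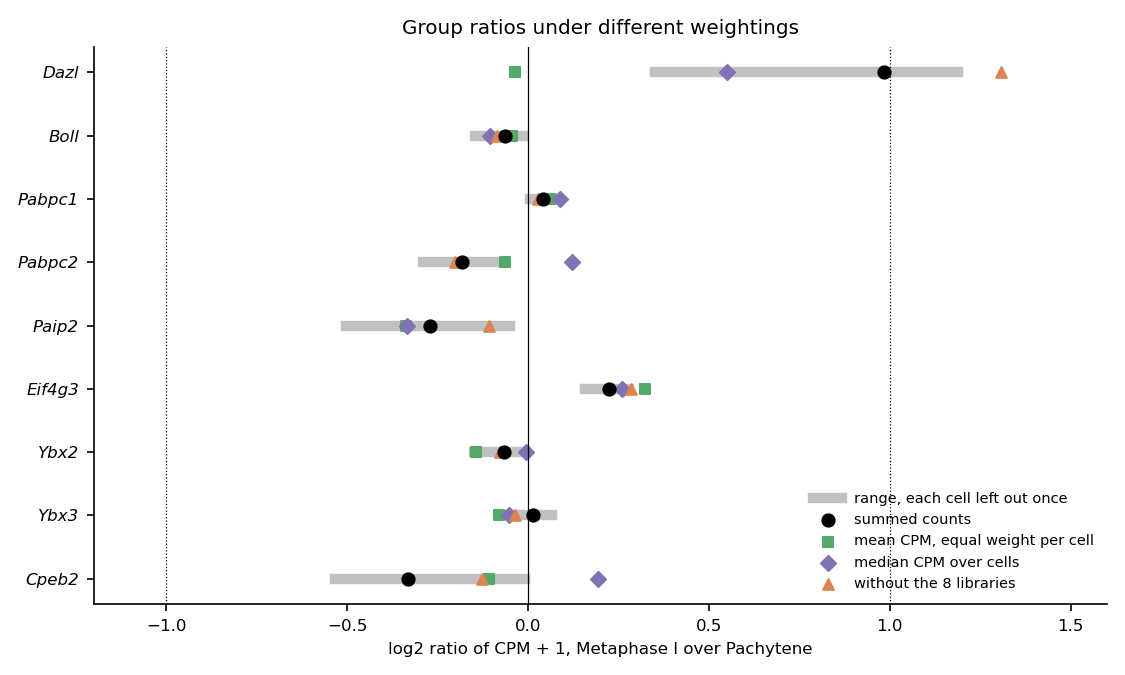
Log2 ratio of CPM + 1, Metaphase I over Pachytene, for the 9 measured genes. Black circles use summed counts, grey bars span the values with each cell left out once, squares give equal weight per cell, diamonds use medians and triangles leave out the 8 libraries; dotted lines mark 2-fold, which Dazl alone passes, and for Dazl the weightings run from -0.04 to 1.31.

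The Y-box proteins Ybx2 and Ybx3 bind and stabilise stored mRNAs in germ cells, and loss of Ybx2 in mice leaves spermatids without many of the messages they need. Ybx2 is at chr11:69935796-69941605, plus strand, and Ybx3 at chr6:131364855-131388476, minus strand. Ybx2 had 165, 558 and 884 CPM in Metaphase I and 338, 560 and 1321 CPM in Pachytene. Ybx3 had 163, 539 and 1199 CPM in Metaphase I and 321, 559 and 1442 CPM in Pachytene. For both genes the medians almost coincided and the lowest cell was Metaphase I replicate 19, the library with Sertoli cell markers. The log2 ratio of Ybx2 was -0.07, and -0.08 without the 8 libraries. That of Ybx3 was 0.01, turning to -0.04 without the 8 libraries, to -0.03 with TMM scaling and to -0.00 with median-of-ratios scaling.

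The pair kept close to equal counts in single cells. The Ybx3 to Ybx2 count ratio had a median of 1.04 in Metaphase I (0.763 to 1.74) and 1.02 in Pachytene (0.571 to 1.30). Both were highest together, Ybx2 and Ybx3 in Pachytene replicate 5 with 1321 and 1442 CPM, and in Metaphase I replicate 18 with 884 and 1199 CPM. Pachytene replicate 5 was the shallowest library, with 165048 counts. Outside the 8 libraries it had the highest elongating spermatid marker sum, 1248 CPM. Metaphase I replicate 18 had the lowest spermatocyte marker sum there, 13714 CPM, and the highest Sertoli cell marker sum, 277 CPM. The Spearman rho of Ybx2 with Ybx3 over the 40 cells was 0.64, with 0.71 within Metaphase I, 0.52 within Pachytene and 0.61 in the 32 libraries. Of the 4287 other genes compared, Ybx3 was the 4th most alike to Ybx2, and Ybx2 the 4th most alike to Ybx3. Ybx1, the widely expressed relative, had a rho of 0.53 with Ybx2 and 0.28 with Ybx3. The longest transcripts of the 3 genes share 0% of their 50-base windows. Because Ybx2 and Ybx3 were high in the same cells, their RefSeq promoters are shown, each 250 bases before to 50 after a start site (GRCm38.p6). That of Ybx2 is chr11:69935649-69935948 on the plus strand, the nearer of its 2 entries to the start in the table, and that of Ybx3 is chr6:131388401-131388700 on the minus strand. Capitals mark the GC box, GGGCGG on either strand.

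Ybx2: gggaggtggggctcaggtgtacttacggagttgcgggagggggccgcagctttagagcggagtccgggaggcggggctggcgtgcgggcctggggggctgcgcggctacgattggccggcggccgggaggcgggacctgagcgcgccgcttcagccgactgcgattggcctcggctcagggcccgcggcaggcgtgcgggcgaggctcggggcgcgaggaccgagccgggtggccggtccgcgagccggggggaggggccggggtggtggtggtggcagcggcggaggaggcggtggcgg

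Ybx3: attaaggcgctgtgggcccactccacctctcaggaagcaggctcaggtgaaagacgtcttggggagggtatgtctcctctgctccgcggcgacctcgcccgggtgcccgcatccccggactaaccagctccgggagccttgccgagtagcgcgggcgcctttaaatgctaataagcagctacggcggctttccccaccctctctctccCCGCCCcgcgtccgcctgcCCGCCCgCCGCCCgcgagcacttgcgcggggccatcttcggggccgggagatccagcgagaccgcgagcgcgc

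Ybx3 had 3 GC boxes and Ybx2 had none, and 35.7% of all promoter windows have at least 1. Neither window held the cAMP half-site, the MYB core or the TATA box spelled above for Dazl. Both were rich in CpG, with 40 in Ybx2 and 34 in Ybx3, and their GC content was 78.0% in Ybx2 and 69.0% in Ybx3, where the median window has 52.7%.

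The CPEB proteins bind the cytoplasmic polyadenylation element and control tail length. Cpeb1, which mouse germ cells need to form the synaptonemal complex, was almost undetected. It had 4 counts in 3 of 20 Metaphase I cells and 7 counts in 3 of 20 Pachytene cells, and 34 cells were at 0. The ratio of Cpeb1, 0.736-fold, had a counting interval of 0.158 to 2.90, so no difference was detectable at this depth. Its gene is at chr7:81347026-81455465, minus strand.

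Cpeb2, a relative with a wider expression, was counted in all 40 cells and lies at chr5:43233170-43289724, plus strand. Cpeb2 had 11.8, 115 and 338 CPM in Metaphase I and 30.0, 100 and 326 CPM in Pachytene. As for Paip2, the highest cells of each group were libraries with over 0.3% X-linked counts. Cpeb2 was between 240 and 338 CPM in 7 of those 8 libraries and at 78.1 CPM in Metaphase I replicate 19, while the other 32 had 11.8 to 206 CPM (median 92.0). Its summed log2 ratio was -0.33, and -0.13 without the 8 libraries. The ratio of medians went the other way, at 0.19. Leaving out Pachytene replicate 7, with 30.7% of the Cpeb2 counts of its group, gave -0.01. A count from the opposite strand could enter Cpeb2, Boll, Eif4g3 or Paip2, since genes annotated opposite to them overlap and no strand setting is stated. Those partners had 91 counts for Gm7854 at Cpeb2, 205 for Gm8292 at Boll, 230 for 1700095J12Rik at Eif4g3 and 22 for Slc23a1 at Paip2. Counts given to a partner do not measure how many opposite-strand counts entered the gene it overlaps.

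**Figure D3:**
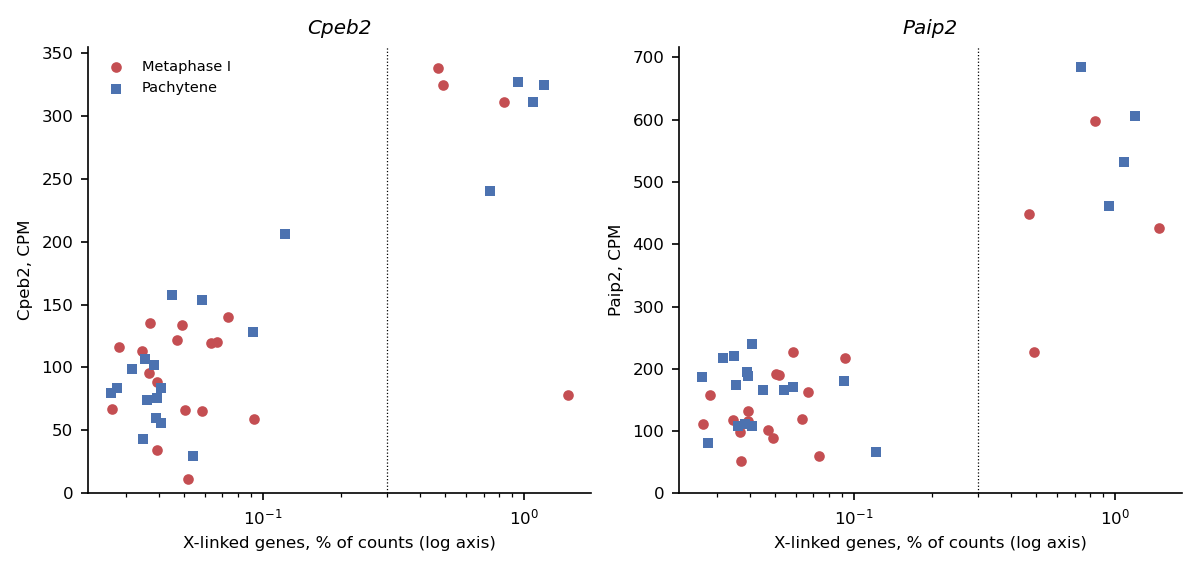
CPM of Cpeb2 (left) and Paip2 (right) in each cell against the share of counts from X-linked genes on a log axis, with the dotted line at 0.3%. Circles are Metaphase I and squares Pachytene; in the 7 libraries right of the line other than Metaphase I replicate 19 Cpeb2 is above every other cell, and Paip2 is at 227 to 685 CPM right of the line.

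In the 7 of these 8 libraries with high Cpeb2, round spermatid markers summed to more than in any of the other 32. The exception was Metaphase I replicate 19, with 426 CPM of Paip2 but 48.3 CPM of elongating and 229 CPM of round spermatid markers, both inside the range of the other 32 libraries. The 12 elongating spermatid markers, all detected, summed to 48.3 to 6073 CPM in the 8 libraries (median 5270) and to 3.46 to 1248 CPM in the other 32 (median 44.7). The 8 round spermatid markers summed to 229 to 3313 CPM in the 8 libraries and to 198 to 704 CPM in the others. Whether spermatids or their RNA account for the 2 genes was not tested. Over the other 32 libraries the pair ran in opposite directions, with a rho between Cpeb2 and Paip2 of -0.55. Over all 40 cells this rho was 0.11. Cpeb4, a relative of Cpeb2, had a rho with Cpeb2 of 0.69 over 40 cells and 0.57 over the 32.

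Levels of different genes are given per kilobase of exon. Only 3′ ends were kept, so counts need not grow with exon length, and the order depends on this division. On this scale, in CPM per kb, the median over 40 cells was 744 for Pabpc1 and 509 for Pabpc2. It was 297 for Ybx2 and 178 for Ybx3, and on this scale the quartile ranges of these 4 did not overlap one another. Without the division Ybx2 and Ybx3 had almost the same median CPM. The gap between them here comes from exon lengths of 1885 and 3075 bases. Boll, at 57.1 CPM per kb, and Paip2, at 48.7, followed, and their quartile ranges overlapped. Eif4g3 at 17.5, Cpeb2 at 13.4 and Dazl at 7.20 CPM per kb were lowest among the 9. The quartiles of Dazl, 1.28 and 19.0 CPM per kb, spanned those medians of Eif4g3 and Cpeb2. Exon length was 11063 bases for Eif4g3 and 3514 for Boll. Before division their medians were 215 and 195 CPM in Metaphase I, and 180 and 210 CPM in Pachytene.

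The relation between Dazl and Pabpc2 was the closest among these genes, and it was opposite in direction. Of 36 pairs of the 9 genes, 2 had a Spearman rho over 0.5 and 2 under -0.5, with a median of 0.11. Dazl and Pabpc2 had a rho of -0.76 over the 40 cells, -0.81 within Metaphase I, -0.67 within Pachytene and -0.78 without the 8 libraries. With median-of-ratios scaling it was -0.53. Cells may share animals and share preparation and the total that scales all genes, so these correlations are descriptions. Single cells at either end show the range. Metaphase I replicate 13 had 389 CPM of Dazl with 373 CPM of Pabpc2, and Metaphase I replicate 6 had no Dazl with 1824 CPM of Pabpc2. Pachytene replicate 14 had 179 CPM of Dazl with 630 CPM of Pabpc2, and Pachytene replicate 11 had no Dazl with 1474 CPM of Pabpc2. Pachytene replicate 5, the highest in Dazl, was between these with 933 CPM of Pabpc2.

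**Figure D4:**
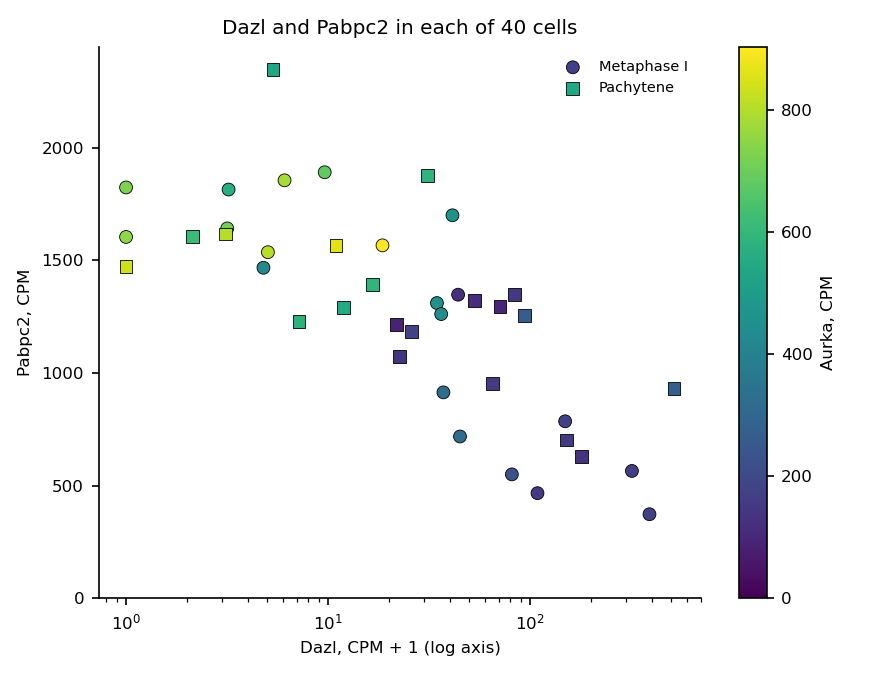
Pabpc2 in CPM against Dazl in CPM + 1 on a log axis, 1 point for each of 40 cells, circles for Metaphase I and squares for Pachytene, coloured by Aurka in CPM. Cells of both groups lie along the same falling band, rho -0.76, and the cells low in Dazl and high in Pabpc2 are mostly those with more Aurka.

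Both genes varied with the M-phase transcripts, in opposite directions and in both groups. Dazl had a rho with Aurka of -0.74 over 40 cells, -0.80 within Metaphase I and -0.64 within Pachytene. Pabpc2 had a rho with Aurka of 0.67, with 0.77 within Metaphase I, 0.59 within Pachytene and 0.41 with median-of-ratios scaling. With the sum of the 8 M-phase genes the rho was -0.78 for Dazl and 0.80 for Pabpc2. Paip2 also ran against Aurka, with a rho of -0.65 over 40 cells, -0.44 within Metaphase I and -0.83 within Pachytene. Sycp1, a component of the synaptonemal complex, had a rho of 0.78 with Dazl over 40 cells and 0.79 without the 8 libraries. Each of these relations with Aurka had the same sign among the cells of either label.

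Ybx2 was on the side of Dazl. Its rho was 0.50 with Dazl, 0.71 without the 8 libraries, and -0.52 with Pabpc2, where it was -0.65 without the 8 libraries. The inhibitor Paip2 and its target Pabpc1 had a rho of -0.46 over 40 cells and of -0.21 without the 8 libraries. Among 4287 genes Paip2 was 11th from the bottom for Pabpc1, while Pabpc1 was 498th from the bottom for Paip2. Dazl was 7th from the bottom for Pabpc2, while Pabpc2 was 87th from the bottom for Dazl. Pabpc6 and Papolb, a relative of the poly(A)-binding proteins and the testis cytoplasmic poly(A) polymerase, had a rho with Pabpc2 of 0.64 and 0.57. Hspa2, the chaperone whose protein Eif4g3 is needed for in mouse spermatocytes, had a rho of -0.24 with Eif4g3.

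**Figure D5:**
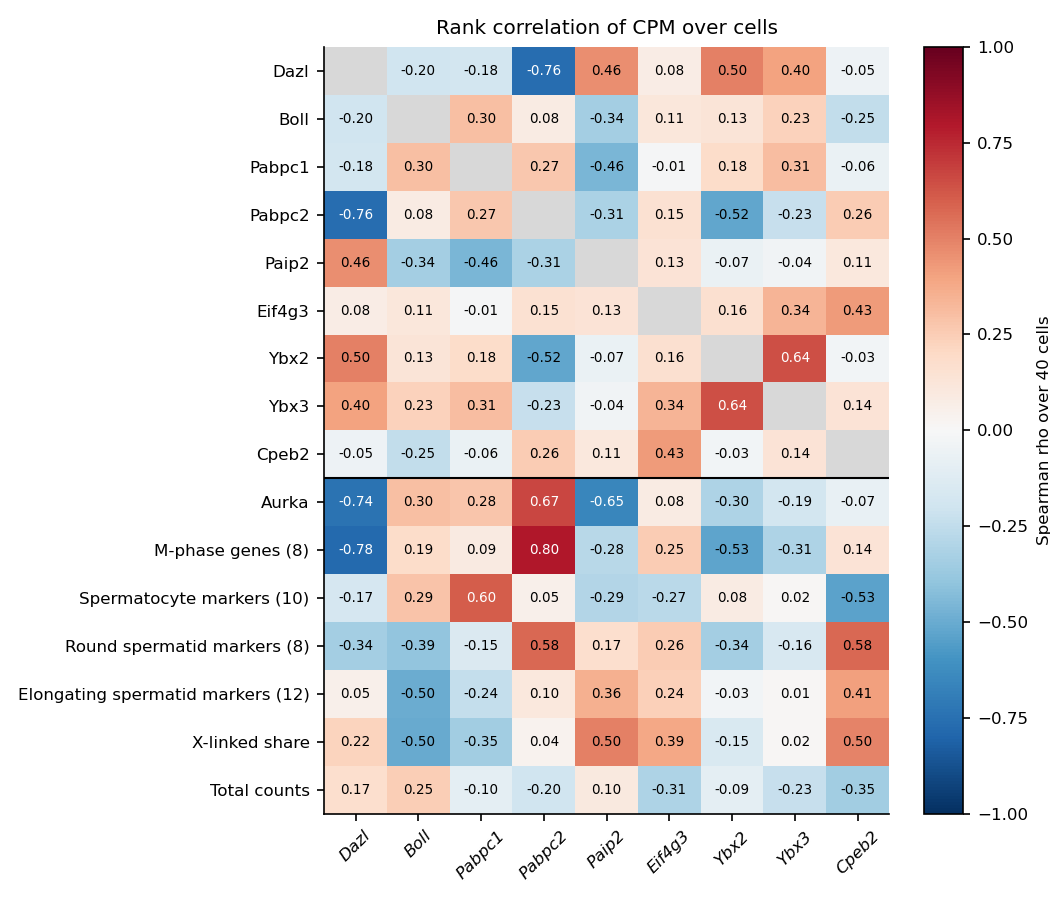
Spearman rho of CPM over the 40 cells between the 9 measured genes, and below the line with Aurka, summed marker lists (numbers of genes in brackets), the X-linked share and the library total. The strongest values are those of Dazl and Pabpc2 with each other, with Aurka and with the M-phase sum.

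The genes most alike in pattern were then taken, for each of the 9, as the 3 with the highest rho over the 40 cells among 4288 genes with at least 1000 summed counts and a count in at least 50% of cells. For Pabpc2 the likeness was the closest, 0.94 with Haspin, the kinase that phosphorylates histone H3 in mitosis and meiosis, then 0.90 with Ccdc83 and 0.89 with Slc2a5. Those of Pabpc2 were 0.89 or more without the 8 libraries as well. Dazl was most alike to Rbm39, a splicing factor, to Tnrc6a, a partner of Argonaute proteins, and to H3f3b, which encodes histone H3.3, with rho of 0.81, 0.81 and 0.80. Cpeb2 was most alike to Akap12 at 0.81, with Fam76a and Nr6a1 at 0.78 each, and these were 0.66, 0.71 and 0.64 without the 8 libraries.

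For the others the likeness was weaker. Paip2 had 0.74 with Ccdc186, 0.74 with Atad1 and 0.73 with H3f3b. Without the 8 libraries these were 0.50, 0.50 and 0.68. Boll had 0.73 with Scyl3, 0.69 with Stk38 and 0.65 with Cnnm4. Ybx3 had 0.72 with Baz2a, 0.72 with Arid2 and 0.65 with Wwc2, and Ybx2 had 0.67 with Wwc2, 0.66 with Pde3b and 0.65 with Taf2. Wwc2 thus stood in both Y-box lists. Eif4g3 had 0.69 with Fsip2, 0.66 with Spef2 and 0.62 with Cep126, of which Fsip2 and Spef2 encode proteins of the sperm tail. Pabpc1 had 0.68 with Tcfl5, a transcription factor of spermatocytes, 0.67 with Supt20 and 0.65 with Sphkap.

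The wider machinery was described from 64 further regulators of tails, caps and mRNA binding, of which 63 were in the table and 55 reached 20 summed counts. In Metaphase I 5 of them were over 2-fold higher and 2 over 2-fold lower, where 8.49% and 9.81% of all genes were, so the share of higher ones was near that of all genes. Their median log2 ratio was 0.14, which did not change with genes at 0 in a group set to their bound. Tent2, a cytoplasmic poly(A) polymerase, had 200 counts in Metaphase I and 48 in Pachytene, a log2 ratio of 2.07, and 1.74 without the 8 libraries. Replicate 13 held 41.0% of the Metaphase I counts of Tent2, and without it the ratio was 1.52. This omission and that of the 8 libraries were made separately. Ythdc2, an m6A-binding helicase needed for meiosis in mice, had 240 counts in Metaphase I and 126 in Pachytene, a log2 ratio of 1.19. Metaphase I replicate 13 held 38.3% of the Metaphase I counts of Ythdc2, and without it the ratio was 0.69. It was 0.23 with equal weight per cell, 0.40 after thinning, 0.53 by medians and 0.68 with a pseudocount of 10 CPM. For Tent2 these were 1.48, 1.83, 1.06 and 0.95. Without the 8 libraries Tent2 and Ythdc2 were the 2 genes over 2-fold higher among 52 measured and none was lower, where 6.32% of all genes were higher and 4.13% lower.

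The other 5 were not past 2-fold without the 8 libraries or fell below 20 summed counts there. Eif4ebp1, which blocks the cap-binding protein eIF4E, had 468 counts in Metaphase I and 72 in Pachytene, and 93.6% of those in Metaphase I were in replicate 19. Pabpc4, a poly(A)-binding protein with 19 counts in Metaphase I and 3 in Pachytene, had all its Metaphase I counts in that library. So had Elavl2, an RNA-binding protein with 42 counts in Metaphase I and 0 in Pachytene. With 3 counts in place of that 0, Elavl2 was 18.0-fold higher in Metaphase I, and its exact binomial interval began at 14.0-fold. Among the lower ones, Pabpc5, an X-linked poly(A)-binding protein, had 0 counts in Metaphase I and 42 in Pachytene. With 3 counts in place of that 0, Pabpc5 was 10.9-fold lower in Metaphase I, and its interval began at 8.45-fold. Of its Pachytene counts 81.0% were in replicate 7. Fmr1, the X-linked fragile X protein gene, had 6 counts in Metaphase I and 47 in Pachytene, with 59.6% of the Pachytene counts in replicate 7. Metaphase I replicate 19 and Pachytene replicate 7 are both among the 8 libraries with over 0.3% X-linked counts. Without Metaphase I replicate 19 alone, 2 of 53 were higher and 2 lower, where 5.06% and 10.2% of 15667 genes were.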

How the data were processed

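The data are RNA sequencing counts of 40 single cells of mouse testis, 20 labelled Metaphase I and 20 labelled Pachytene. Library preparation was a modified STRT-seq with oligo(dT) primers and kept 3′ ends, per the labels' protocols. The tools named are UMI-tools, STAR and featureCounts, and the build GRCm38, per the submitters' processing notes. The values in the deposited table are raw whole-number counts, beside exon coordinates and exon length. The strand setting, the annotation release and whether counts are reads or molecules: not given in the sources used here. If they are reads, intervals are too narrow. Total counts per cell ran from 198117 to 1497037 in Metaphase I and from 165048 to 2325564 in Pachytene.

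The genes and lists were chosen with earlier results of these data known. For each group, the summed counts of a gene over the summed library totals gave its CPM. The log2 ratio puts Metaphase I over Pachytene after adding 1 CPM to each, for genes with 20 or more summed counts, and a call was over 2-fold. With 1 sample a group no test was made and no p-value is given. Intervals are exact Poisson for counts and exact conditional binomial for folds, at 95%. Correlations are Spearman rho of CPM over cells. No 2 libraries of a group agreed within sampling noise, the chi-square per degree of freedom being 2.69 or more in every pair. Doublets were not called on 40 cells. Named beyond the 10 genes were measured regulators past 2-fold, the 3 genes most alike to each (without mitochondrial, ribosomal protein and unnamed gene models), and markers or relatives that a result turns on. Of the regulators listed, Qki was not matched in the table. Further marker lists for Leydig cells (0 to 162 CPM in Metaphase I, 0 to 12.1 CPM in Pachytene), spermatogonia (0.719 to 412 CPM in Metaphase I, 0 to 39.3 CPM in Pachytene) and other somatic cells (0 to 63.9 CPM in Metaphase I, 0 to 28.2 CPM in Pachytene) were summed.

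Positions are those of the deposited table, 1-based, and equal GENCODE M21 for all 10 genes, each protein-coding there. RefSeq promoter windows were found for 6 of the 10. The alternatives were equal weight per cell, ratio of medians, scaling by TMM or by median of ratios, totals that omit genes of mitochondria and ribosomal proteins, a pseudocount of 10 CPM, count minimums of 100 and none, thinning to 340000 counts (3 Metaphase I cells and 1 Pachytene cell left out as shallower), omission of the 8 libraries and of each cell in turn. For correlations, scaling, thinning and single omissions were chosen after seeing the data. The ratio code was tested on simulated counts. Python 3.11.15, pandas 2.3.3, scipy 1.17.1, R 4.3.3, edgeR 4.0.16 and DESeq2 1.42.0 (size factors only) were used.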

Additional observations from a re-analysis of the deposited data

How the results depend on the processing

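None of the 9 measured genes was over 2-fold lower under any alternative. The count of them over 2-fold higher was 0, with the exceptions that follow. It was 1 (Dazl) with totals without mitochondrial and ribosomal protein genes. It was also 1 (Dazl) without the 8 libraries with over 0.3% X-linked counts. With each cell left out it ran from 0 to 1. The median log2 ratio of the members, -0.06, turned to 0.0891 by the ratio of medians and ran from -0.09 to -0.01 with each cell left out. Of the other regulators, 5 higher and 2 lower became 1 higher and 1 lower by the ratio of medians, 1 and 0 with a pseudocount of 10 CPM, 3 and 0 at 100 summed counts, 3 and 1 with thinning, and 2 and 0 without the 8 libraries; equal weight per cell left 1 lower. With each cell left out they ran from 2 (without Metaphase I replicate 19) to 6 (without Pachytene replicate 14) higher and from 0 (without Pachytene replicate 7) to 3 (without Metaphase I replicate 18) lower. Of the 7 correlations followed under every alternative (those listed next), Spearman rho moved by over 0.2 in 4 cases, to -0.53 for Dazl with Pabpc2 and 0.41 for Pabpc2 with Aurka (median-of-ratios), 0.71 for Dazl with Ybx2 (without the 8 libraries) and -0.44 for Paip2 with Aurka (within Metaphase I); the cause was not tested. With each cell left out, rho ran from -0.79 to -0.74 for Dazl with Pabpc2, -0.77 to -0.73 for Dazl with Aurka, 0.65 to 0.69 for Pabpc2 with Aurka, 0.46 to 0.57 for Dazl with Ybx2, 0.62 to 0.68 for Ybx2 with Ybx3, -0.61 to -0.49 for Pabpc2 with Ybx2 and -0.71 to -0.62 for Paip2 with Aurka. No paired analysis was possible because the results come from no test and a shared replicate number names no shared animal or culture. Depth limits Cpeb1 most, with 11 counts in 40 cells, and low Dazl cells, where 0 counts allow up to 10.6 CPM.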
